A study of Homo sapiens with 8 samples.

Results

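Heterotrimeric G proteins carry signals from receptors at the cell surface to enzymes inside the cell. An alpha subunit binds guanine nucleotide and, once loaded with GTP, parts from the beta-gamma pair, and both then act on effectors. GNAS encodes the alpha subunit that stimulates adenylyl cyclase (Gs alpha). GNAI2 and GNAI3 encode alpha subunits that inhibit it, GNAQ encodes the alpha subunit that activates phospholipase C beta, and GNB1 encodes a beta subunit. The binding of TIA1 and RBFOX2 to the RNA of these 5 genes was described from eCLIP, a method that fixes protein to RNA in living cells with ultraviolet light, recovers the protein with an antibody and sequences the RNA that comes with it. TIA1 favours U-rich stretches of RNA and acts in splicing and in translational control. RBFOX2 is a splicing regulator that recognises GCAUG.

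All 8 libraries came from HEK293T cells, an immortalised kidney line of human embryonic origin. They comprised 2 TIA1 clip and 2 TIA1 input libraries, and 2 RBFOX2 clip and 2 RBFOX2 input libraries. By the labels, clip libraries were immunoprecipitated with an antibody against the HA tag and input libraries were not. A protocol text also names beads carrying TIA1 for all 8 libraries. Every culture received 600 mJ of ultraviolet light. The authors deposited 1 peak list per protein, made from its 4 libraries together, so values per library, read depth and replicate error are unknown and no difference was tested.

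Members were the peaks that overlapped the span of a gene on its own strand, with hg19 spans set to whole kb. They were 18 of 7442 deposited peaks: 14 of 3215 in the TIA1 list and 4 of 4227 in the RBFOX2 list. The opposite strand of the same spans held 0 peaks of either list. The spans were chr20:57414001-57487000 (plus) for GNAS, chr1:1716001-1823000 (minus) for GNB1, chr3:50263001-50297000 (plus) for GNAI2, chr1:110091001-110139000 (plus) for GNAI3 and chr9:80335001-80647000 (minus) for GNAQ. The chromosome and strand of all 5 were the same in the GENCODE release 29 annotation. The genes had been chosen by the peaks they hold in these lists, with the deposited fold and −log10 p of those peaks known, so the counts and values below describe the members and support nothing beyond them.

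No span held peaks of both lists, which rests on very few genes, and the share of all genes with both was not computed. Over the whole lists, 24.0% of TIA1 peaks overlapped an RBFOX2 peak and 21.7% of RBFOX2 peaks overlapped a TIA1 peak. A TIA1 peak also lay 6.12 kb beyond the GNB1 span on its strand. GNAS held 13 TIA1 peaks and 0 RBFOX2 peaks, GNAI3 held 1 TIA1 peak and 0 RBFOX2 peaks, and GNB1 held 0 TIA1 peaks and 4 RBFOX2 peaks. GNAI2 and GNAQ held 0 peaks of either list, although the GNAQ span, at 312 kb, was the longest of the 5. Peaks below a log2 fold of 3.0 or a −log10 p of 3.01 do not occur in the lists and the depth is unknown, so an empty span does not show that its RNA was unbound. With peaks no more than 50 bases apart joined, the 14 TIA1 peaks made 4 sites and the 4 RBFOX2 peaks made 2.

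**Figure D1:**
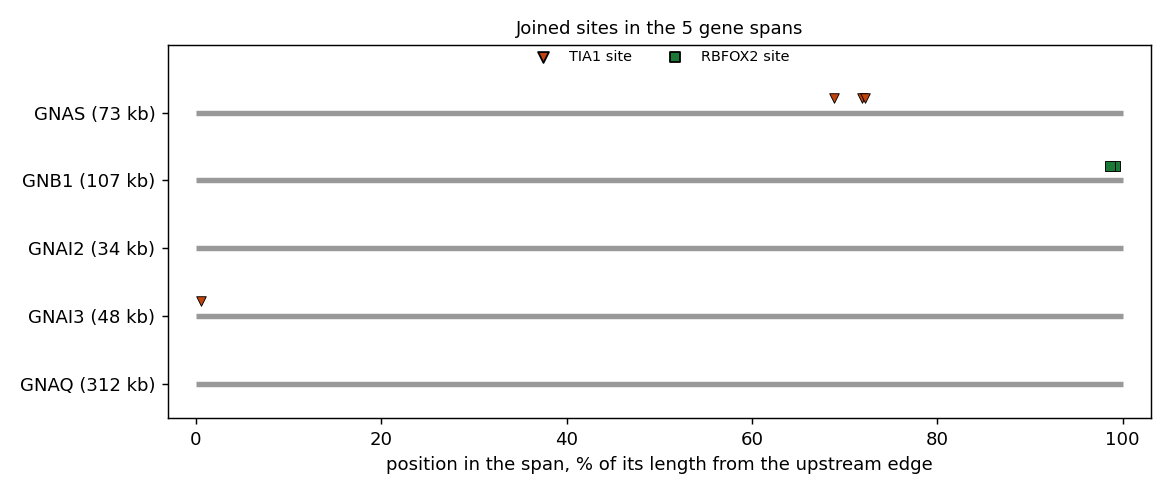
Position of each joined site (triangles, TIA1; squares, RBFOX2) along the 5 gene spans, as a percentage of span length from the upstream edge, with the span length in kb beside each gene. The GNAS sites lie 68.8 to 72.2% of the way along, the GNAI3 site lies at 0.521% and the GNB1 sites lie at 98.6 and 99.2%.

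The GNAS locus is imprinted and is read from several alternative first exons. In the direction of transcription these are the first exons of NESP55, of the long form XL alpha s, exon A/B and, last, the first exon of Gs alpha, and their transcripts share the exons that follow. The 3 TIA1 sites of GNAS lay within 2.55 kb of one another in a span of 73 kb, more than 50 kb from its upstream edge and more than 20 kb from its downstream edge. The first, chr20:57464253-57464391, was a single peak of 139 bases. The second, chr20:57466450-57466631, began after a gap of 2058 bases and held 10 peaks in 182 bases. The third, chr20:57466704-57466799, followed after 72 bases and held 2 peaks in 96 bases. Which of the alternative first exons these sites touch was not analysed here, because the annotation at hand is of another build than the peaks.

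Within the 10-peak site every peak abutted the next, and the deposited log2 fold of clip over input was highest in the second peak. From upstream to downstream, the log2 folds of the first 5 peaks were 4.11, 4.51, 4.18, 4.21 and 4.30. Those of the next 5 were 4.29, 4.10, 3.94, 3.89 and 3.40. The summit of 4.51, which corresponds to 22.8-fold, stood on a 9-base peak at chr20:57466516-57466524, 66 bases after the start of the site. From there to the last peak the log2 fold was lower by 1.12, while the first peak was lower than the summit by 0.40. In all, 7 of the 10 peaks reached a log2 fold of 4. The mean log2 fold of the site, weighted by peak width, was 4.04.

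The −log10 p did not peak where the fold did. It was 86.4 in the first peak and 85.3 in the peak of highest fold. The next 3 peaks, which span 34 bases at chr20:57466525-57466558, stood at the upper limit of 400. The 5 peaks after them had 81.1, 52.7, 59.1, 50.6 and 45.0. The 3 peaks at the limit had log2 folds of 4.18 to 4.30, below the 4.51 of their upstream neighbour. In the TIA1 list no value lies between 86.8 and 400, so the step from 85.3 to 400 is one that the deposited scale makes in a single jump. The 86.4 of the first GNAS peak ranked second among all TIA1 peaks below the limit. A −log10 p also depends on read depth, which is unknown, so what lies behind its contrasts with fold, here and below, was not tested. The abutting peaks form 1 joined site and are not independent places.

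The flanking GNAS sites had lower folds than the 10-peak site. The upstream peak at chr20:57464253-57464391 had a log2 fold of 3.29 and a −log10 p of 17.0. The 2 peaks of the downstream site had log2 folds of 3.06 and 3.18, with −log10 p of 29.9 and 33.6. In log2 fold, 57.8% of TIA1 peaks were at or above the upstream GNAS peak. By −log10 p only 15.9% were. The same contrast held for the downstream site, where 71.5% of TIA1 peaks were at or above its better peak in fold and 6.07% in −log10 p. The nearest RBFOX2 peak on the plus strand was 579 kb from the upstream GNAS site.

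**Figure D2:**
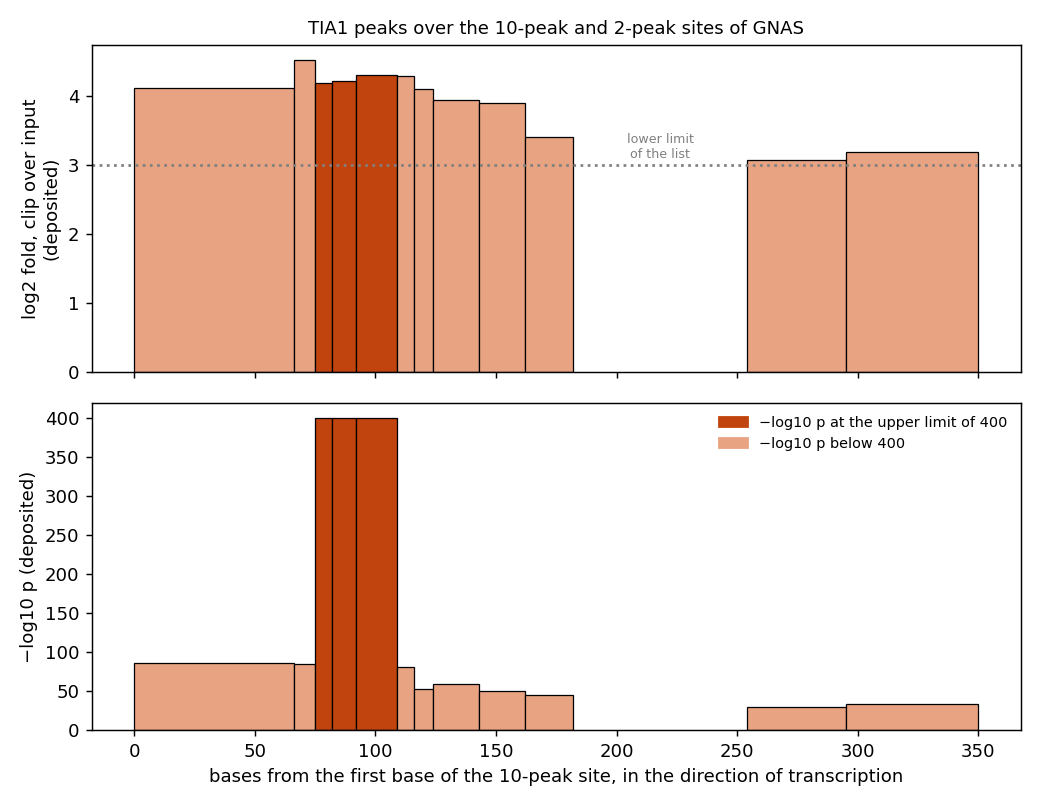
Deposited log2 fold of TIA1 clip over input (top) and −log10 p (bottom) of the 12 peaks in the 10-peak and the 2-peak site of GNAS, against bases from the start of the 10-peak site. Each bar is 1 peak drawn at its width; dark bars mark the 3 peaks at the −log10 p limit of 400, which lie just downstream of the summit in log2 fold of 4.51.

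GNAI3 held 1 TIA1 peak, a 129-base peak at chr1:110091251-110091379, 250 bases after the upstream edge of its span. Its log2 fold was 3.07, which corresponds to 8.39-fold, and its −log10 p was 12.3. In fold it was near the bottom of the list, with 88.1% of TIA1 peaks at or above it, whereas 25.2% were at or above it in −log10 p. The nearest RBFOX2 peak on that strand lay 82.5 kb away.

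GNB1 held RBFOX2 peaks at the other end of its span, within 1.5 kb of the downstream edge. Transcription runs towards lower coordinates, so the site at chr1:1717296-1717498 comes first and the site at chr1:1716758-1716870 follows after a gap of 425 bases. Each held 2 abutting peaks. In the upstream site, the peak at chr1:1717384-1717498 had a log2 fold of 4.09 (17.0-fold) and a −log10 p of 15.1. Its neighbour at chr1:1717296-1717383 had a log2 fold of 3.59 and a −log10 p of 11.0. In the downstream site, the peak at chr1:1716828-1716870 had a log2 fold of 3.78 and a −log10 p of 3.66. The last, at chr1:1716758-1716827, had a log2 fold of 3.94 and a −log10 p of 5.11. The 2 sites thus had like folds, with width-weighted means of 3.87 and 3.88 on the log2 scale, and differed in −log10 p. Whether they lie in the last exon was not analysed here, for want of an annotation of the same build.

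The nearest peaks outside the spans were mostly far off. The closest was a TIA1 peak 6.12 kb beyond the downstream edge of the GNB1 span, at chr1:1709762-1709883, with a log2 fold of 3.36 and a −log10 p of 6.44. The next closest was an RBFOX2 peak 34.8 kb beyond the downstream edge of the GNAI3 span, with a log2 fold of 3.65 and a −log10 p of 4.95. On the strand of GNAI2 the nearest peak of either list lay 528 kb outside its span, and on that of GNAQ 2737 kb outside.

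Set beside the rest of each list, the members had the higher folds when peaks were counted singly. The 14 TIA1 peaks had a median log2 fold of 4.02 (range 3.06 to 4.51), against 3.36 (3.0 to 6.37) for the other 3201. Of them 7, or 50.0%, reached a log2 fold of 4, and all 7 were in the 10-peak GNAS site. In the whole TIA1 list 9.21% of peaks reached it. The 4 RBFOX2 peaks of GNB1 had a median log2 fold of 3.86 (3.59 to 4.09), against 3.48 (3.0 to 6.19) for the other 4223. All 4 were above the median of their list, and 1 reached a log2 fold of 4, as did 19.3% of the list. With a log2 fold of 4 required, the difference of 0.38 between the medians turned to -0.22. That cut is made on the value compared, and it left that 1 peak in GNB1.

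The TIA1 difference did not hold by site. Counted by site, the highest log2 folds of the 4 TIA1 sites were 4.51, 3.29 and 3.18 in GNAS and 3.07 in GNAI3, and the difference of their median from that of the other sites of the list was -0.14 on the log2 scale. Between single peaks the difference of 0.66 also turned, to -0.12 without peaks under 20 bases and to -0.29 without GNAS. With a log2 fold of 4 required it was -0.073. That cut is made on the value compared, so it cannot tell whether the uncut difference holds. Of the 14 TIA1 peaks, 8 were under 20 bases wide, all of them in the 10-peak site, against 18.8% of the whole list. Of the 4 GNB1 peaks, which were 43 to 115 bases wide, 0 were under 20 bases, against 9.79% of the RBFOX2 list. The highest log2 folds of the GNB1 sites, 4.09 and 3.94, were above 3.73, the median over all 465 RBFOX2 sites of 2 peaks.

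By −log10 p all 14 TIA1 peaks were above the median of their list. They are not 14 independent places, since 13 lie in 3 GNAS sites. The genes were also chosen with earlier results of these data known. The median of the 14 peaks was 55.9 (range 12.3 to 400), against 7.34 (3.01 to 400) for the rest. That difference of 48.5 was 24.4 without peaks under 20 bases, 18.5 between joined sites and 4.92 without GNAS, where only the GNAI3 peak remained. The limit of 400 was reached by 3 of the 14, and by 2.02% of the list. The 4 GNB1 peaks had a median of 8.05 (3.66 to 15.1), against 6.77 (3.01 to 400) for the rest of the RBFOX2 list. None of the 4 (0) was at the limit, which 0.686% of that list reached.

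**Figure D3:**
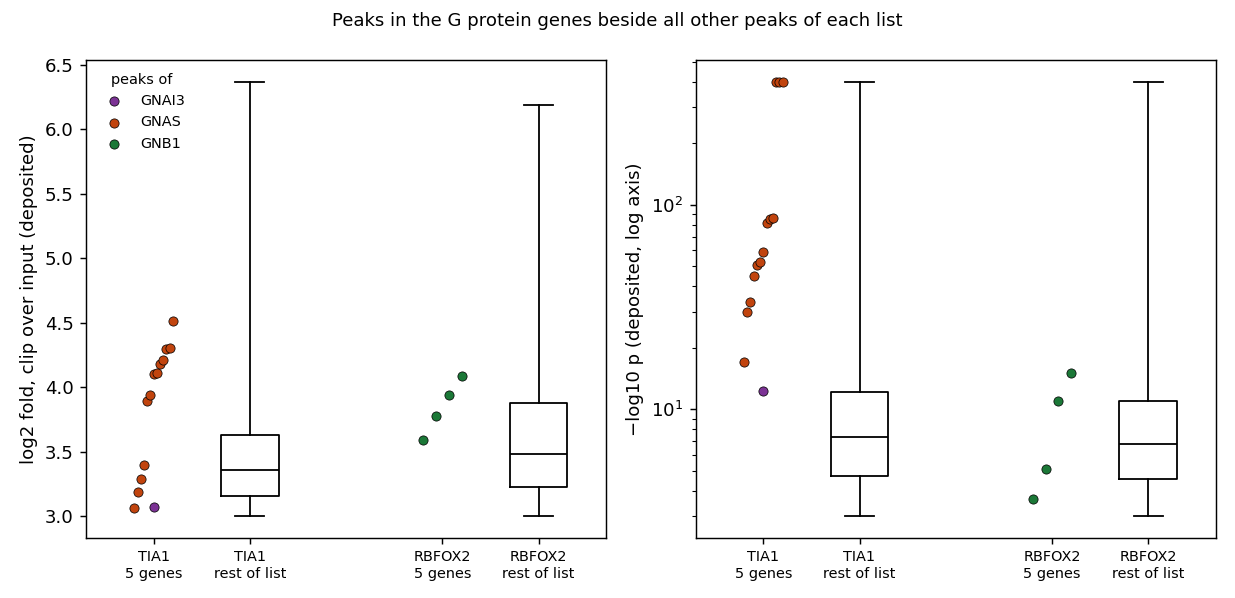
Log2 fold (left) and −log10 p on a log axis (right) of each peak in the G protein genes (points, coloured by gene) beside all other peaks of the same list (box, quartiles and median; whiskers, lowest and highest value). The TIA1 points spread from 3.06 to 4.51 in log2 fold, with GNAI3 and 2 of the 3 GNAS sites at the low end, and the GNB1 points lie between 3.59 and 4.09.

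The 10-peak GNAS site was compared with the sites most like it. Of 2413 joined TIA1 sites, 1879 (77.9%) were a single peak and 2 held at least 10. The other of those 2, chr1:109642956-109643152 on the plus strand, held 16 peaks in 197 bases, with log2 folds of 3.03 to 4.69. Among the 24 TIA1 sites with 5 or more peaks, the GNAS site ranked second by number of peaks, seventh by its highest log2 fold and 13th by width. Of these 24 sites, 14 overlapped an RBFOX2 site, and the GNAS site did not. Of the 20 TIA1 sites that reached the −log10 p limit, the GNAS site among them, 7 overlapped an RBFOX2 site. Among all TIA1 peaks, 24.0% overlapped an RBFOX2 peak. That share is of single peaks, and the share over all 2413 joined sites is not given here. The site counts therefore cannot be set against it. The 24 sites were also wider, with a median of 182.5 bases against 78 over all TIA1 sites. RBFOX2 had 89 sites with 5 or more peaks and none of them (0) lay in the 5 spans. The GNB1 sites had 2 peaks each, as did 465 of the 2749 RBFOX2 sites.

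**Figure D4:**
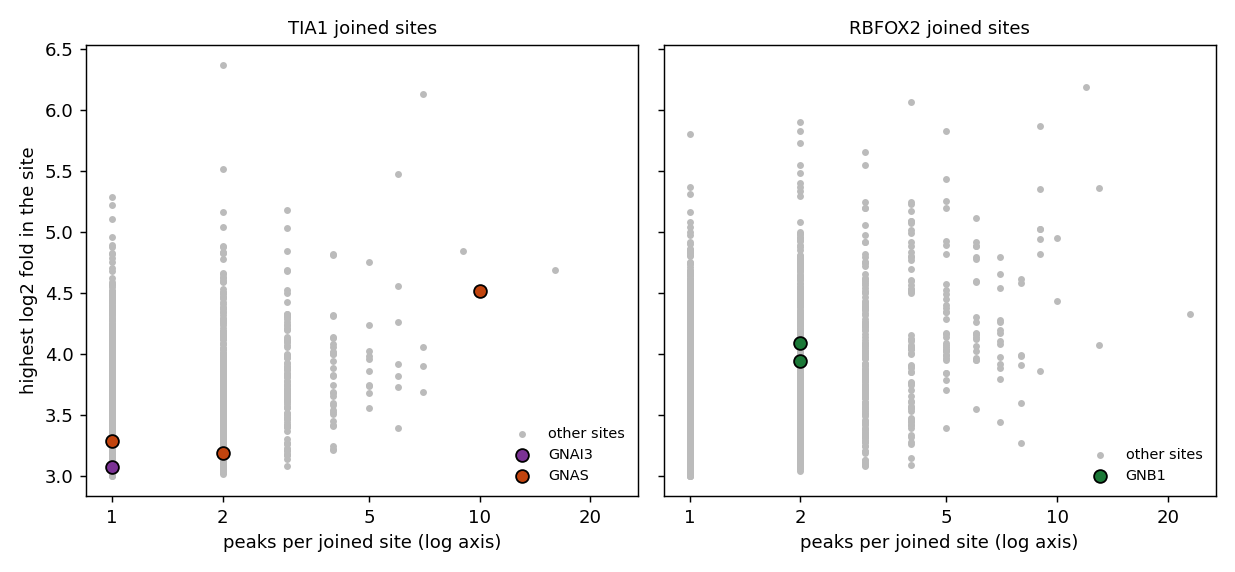
Highest log2 fold of each joined site against its number of peaks (log axis), for TIA1 (left) and RBFOX2 (right); grey points are all other sites and coloured points the sites in GNAS, GNAI3 and GNB1. The 10-peak GNAS site, with 4.51, stands apart from the other G protein sites, which hold 1 or 2 peaks.

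No member peak was shared between the proteins. Among the 14 TIA1 peaks, 0 shared a base with an RBFOX2 peak on their strand, against 24.0% of the TIA1 list. Among the 4 RBFOX2 peaks, 0 shared a base with a TIA1 peak, against 21.7% of the RBFOX2 list. The 14 TIA1 peaks form 4 sites in 2 genes and the 4 RBFOX2 peaks form 2 sites in 1 gene, so these counts rest on very few independent places. The distance from the GNB1 peaks to the nearest TIA1 peak was 6.87 to 7.50 kb.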

How the data were processed

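Peak lists from eCLIP were used as the authors deposited them, 1 per protein and without a header. Per the submitters' processing notes, UMI-tools 1.0.0, cutadapt 1.14, STAR 2.4.0i, SAMtools 1.6 and the hg19 build were used, with no role given, and which program called the peaks is not stated there or in the labels. The deposited column read as −log10 of a p-value starts at 3.01 and stops at 400. The deposited column read as a log2 fold starts at 3.0, and it was taken as clip over input from the libraries listed for each file. Both units were inferred from the values.

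The members and lists were chosen with earlier results of these data known. Named peaks and sites followed the rule of up to 5 joined sites per gene and list. Peaks were joined at gaps of up to 50 bases on a strand, and overlap meant at least 1 shared base. Counting and joining were tested on simulated data with planted peaks. The work was done in Python 3.11.15 with pandas 2.3.3, scipy 1.17.1, numpy 2.4.6 and matplotlib 3.10.9. Coordinates are 1-based in hg19. The annotation at hand is GRCh38 and no genome sequence was given, so exons, motifs, peak sequences and the planned list of other G protein genes were not analysed here. The design text describes technical replicates and the extract protocol biological ones, so their kind is not settled. The labels name an anti-HA antibody for the clip libraries, and 1 protocol text also names beads carrying TIA1 for all 8.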

Additional observations from a re-analysis of the deposited data

How the results depend on the processing

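The TIA1 median log2 fold, higher in the 5 genes than in the rest of the list by 0.66, changed direction under each of 4 alternatives: -0.14 with peaks within 50 bases joined, -0.073 with a required log2 fold of 4, -0.12 without peaks under 20 bases and -0.29 without GNAS, where 1 peak remained. The RBFOX2 difference of 0.38 was 0.52 with peaks within 50 bases joined, which left 2 GNB1 sites. It was 0.38 without peaks under 20 bases, which left all 4 GNB1 peaks. It became -0.22 with a required log2 fold of 4, where 1 peak remained. That requirement cuts on the value compared, so in neither list can it tell whether the uncut difference holds. The TIA1 difference in median −log10 p, 48.5, was 24.4 without peaks under 20 bases, 18.5 for joined sites and 4.92 without GNAS. A required log2 fold of 4 left 7 TIA1 peaks and 1 RBFOX2 peak in the spans, leaving out peaks under 20 bases left 6 TIA1 peaks, and the opposite strand held 0 of either. Widening the spans by 5 kb, taking only peaks wholly inside them and a −log10 p of at least 5 left 14, 14 and 14 TIA1 peaks and 4, 4 and 3 RBFOX2 peaks. Joining within 100 or 200 bases merged the 2 downstream GNAS sites and left 3 TIA1 and 2 RBFOX2 sites. The overlap between the proteins was 0 under all 4 alternatives run, but it could not have been otherwise. A stricter overlap, a higher fold or leaving out GNAS cannot raise a count of 0. No member lay nearer than 6.87 kb to a peak of the other list, so allowing a gap of 50 bases could not either. No paired analysis was possible because the deposited values come from both replicates together, which also means that neither replicate can be left out. Depth is not known, so spans without peaks cannot be read as unbound.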
